A study of Mus musculus with 6 samples.

Results

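The lysyl oxidases Lox and Loxl1 to Loxl4, the prolyl 4-hydroxylase alpha subunits P4ha1 to P4ha3 and the lysyl hydroxylases Plod1 and Plod2 were followed in mouse atria under a high-fat diet (HFD). The 10 genes were taken by name, and each had 1 row among the 43432 genes of the deposited table. The study sequenced right and left atrial tissue of WT mice on the C57/Bl6J background, 3 on the HFD and 3 on control chow, to ask how diet-induced obesity alters atrial transcripts. Each diet began when the mice were 6 weeks old and lasted 10 weeks. The labels contradict each other, since the titles and the column names give one diet while in each of the 6 samples the treatment field gives the other diet. Groups follow the titles here, so every direction below would turn if the treatment field were right. The labels number the samples without saying how many animals each holds. Each sample is called a mouse here, and p-values measure the spread between these samples.

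Collagen is modified inside the cell before it is secreted. Prolyl 4-hydroxylase hydroxylates proline in the chain, which keeps the triple helix stable at body temperature, and lysyl hydroxylases hydroxylate lysine, the later anchor of sugars and cross-links. Outside the cell, lysyl oxidases, which need copper, oxidize lysine and hydroxylysine side chains so that collagen and elastin fibers become cross-linked. In the heart these enzymes are made largely by fibroblasts, and cross-linked collagen is known to stiffen the muscle.

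Values are read counts divided by 1 size factor per sample, called normalized counts. Reads on genes ranged from 15874251 to 28971508 per sample, with control mouse 2 the deepest, and 3 reads were worth between 2.05 and 3.41 normalized counts. Mitochondrial genes took 30.7% of the reads of control mouse 2 and from 19.5% to 24.4% elsewhere. The diets were compared by limma, on log2(normalized count + 1), for the 15275 genes with a mean of at least 10, and log2 fold changes are HFD minus control on that scale, which understates changes of low genes. The atrial myocyte markers Nppa, Myl7, Myl4, Sln and Bmp10 were all present, and summed to between 285064 and 518575 normalized counts per mouse. In whole tissue, fewer cells of a type and less RNA per cell cannot be told apart.

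Lox was the only member called as different between the diets, and it was higher on the HFD. At an adjusted p under 0.05, 1 of the 9 members tested was called, against 0.746% of all genes tested, and against 0.484% called in the higher direction. Before adjustment, p was under 0.05 for 3 members, Lox, P4ha1 and P4ha2, against 12.2% of all genes. The same 3 had every HFD mouse above every control mouse, a pattern seen in that direction in 8.86% of all genes. All 9 estimates were above 0 and their median log2 fold change was 0.33, against 7761 of 15275 estimates and a median of 0.0049 over all genes. P4ha3, the remaining member, had a mean of 9.59 normalized counts and was not tested by limma.

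Lox encodes the founding lysyl oxidase. Its gene (ENSMUSG00000024529) lies on the minus strand of chromosome 18 of GRCm38 from 52516069 to 52529867. Lox had 260.2, 245 and 232 normalized counts in HFD mice 1, 2 and 3 and 122, 120.5 and 131 in control mice 1, 2 and 3. The lowest HFD mouse stood well above the highest control mouse, and both groups were narrow. HFD mice averaged 246 ± 14.3 and control mice 125 ± 5.78 (SD, n = 3 each), a ratio of 1.97. Behind these values stood 204 to 259 reads per HFD mouse and 109 to 176 per control mouse. The log2 fold change had a 95% interval from 0.62 to 1.32 (limma adjusted p = 0.0252). An exact permutation test, two-sided, gave p = 0.1, and no smaller value is possible with 3 against 3. Lox was also called by edgeR with TMM factors (adjusted p = 0.0265), by edgeR with RLE factors (adjusted p = 0.0262) and by DESeq2 (adjusted p = 0.000977). With 1 mouse left out in turn, the call held without HFD mouse 3, where the log2 fold change was 1.01 (limma adjusted p = 0.0163). Without HFD mouse 1 or 2, or any of control mice 1, 2 and 3, it was lost, at log2 fold changes from 0.93 to 1.01 and limma adjusted p from 0.0853 to 0.116. An antisense transcript, AC161119.1, overlaps 1207 bases of the Lox gene, introns included, and the overlap with exons was not measured. Whether counting used strand is not stated, so reads in any shared exon cannot be told apart.

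Loxl1, known for its part in elastic fiber assembly, was the most abundant lysyl oxidase. The gene (ENSMUSG00000032334) spans 58287723 to 58313212 of chromosome 9 on the minus strand. Its normalized counts were 1905, 1728 and 2277 in HFD mice 1, 2 and 3 and 2199, 1671 and 1403 in control mice 1, 2 and 3. The groups overlapped, with control mouse 1 above HFD mice 1 and 2. The log2 fold change of Loxl1 was 0.18 with a 95% interval from -0.20 to 0.55 (limma adjusted p = 0.73).

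Loxl2, which cross-links collagen IV among other substrates, had 262, 353 and 496 normalized counts in HFD mice 1, 2 and 3 and 279, 305 and 231 in control mice 1, 2 and 3. HFD mice 2 and 3 lay above all controls, while HFD mouse 1 lay among them. Its log2 fold change was 0.41, with a 95% interval from -0.08 to 0.90 (limma adjusted p = 0.507), and 0.17 without HFD mouse 3. The antisense gene Gm27177 overlaps 74219 bases of the Loxl2 gene, introns included, while all exons of Loxl2 cover 5405 bases. The overlap with exons was not measured, so how far it touches the value of Loxl2 is not known. Loxl2 itself (ENSMUSG00000034205) occupies 69609068 to 69695834 of chromosome 14, plus strand.

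Loxl3, a lysyl oxidase needed in cartilage and muscle development, had 216, 216 and 349 normalized counts in HFD mice 1, 2 and 3 and 301, 276 and 186 in control mice 1, 2 and 3. HFD mouse 3 was the highest of all and the other HFD mice were below control mice 1 and 2. The log2 fold change was 0.03 (95% interval from -0.50 to 0.55) with all mice, and -0.20 (95% interval from -0.68 to 0.27) without HFD mouse 3. The gene (ENSMUSG00000000693, chromosome 6, 83034173 to 83052562, plus strand) shares 1297 bases with Htra2 on the opposite strand. Loxl4 (ENSMUSG00000025185, chromosome 19, 42593982 to 42612813, minus strand), the least abundant of the family, ranged from 20.4 to 40.9 normalized counts on the HFD and from 17.8 to 29.5 on the control diet. The groups overlapped, and the log2 fold change was 0.22 with a wide 95% interval from -0.69 to 1.12.

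**Figure D1:**
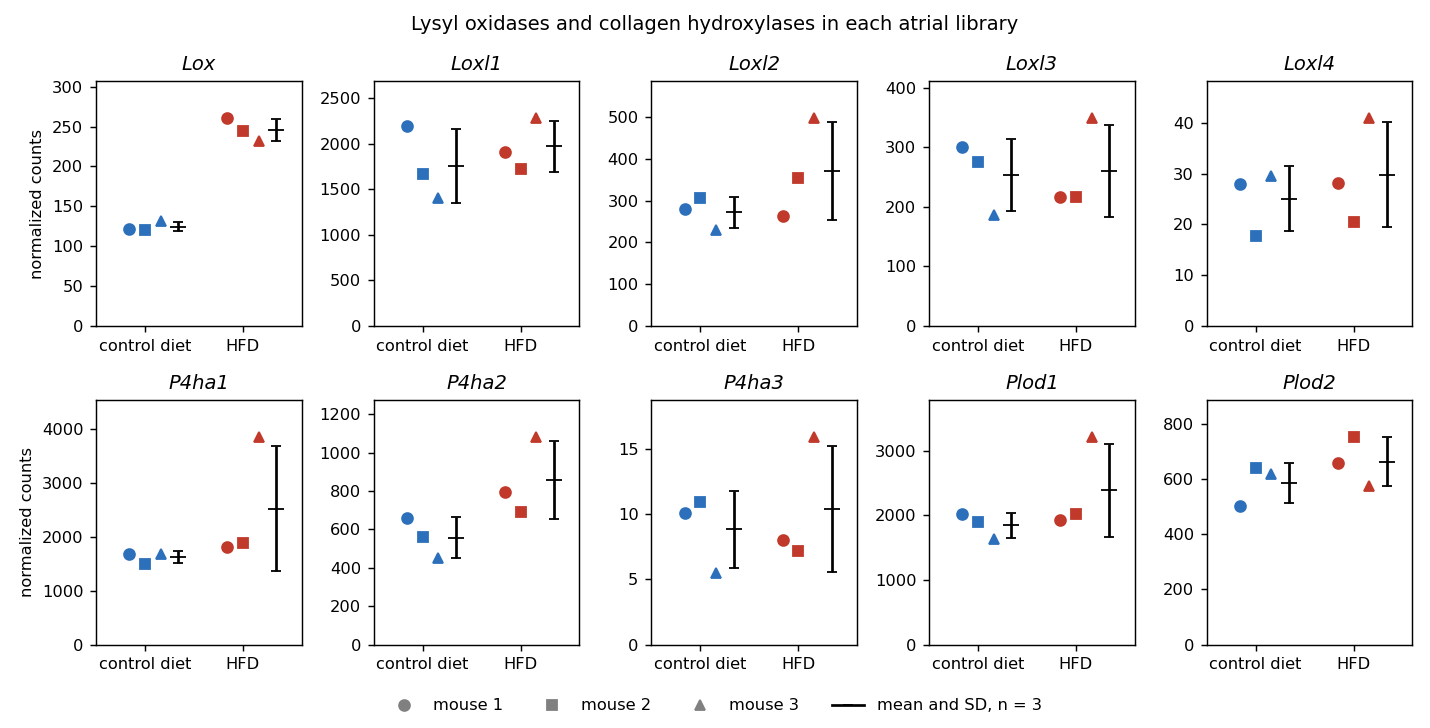
Normalized counts of the 10 genes (vertical axes from 0, one scale per gene) in each control diet (blue) and HFD (red) mouse, with the mean and SD of 3 mice in black. Lox separates the diets with 232 to 260.2 against 120.5 to 131, while the triangle of HFD mouse 3 stands highest for 8 of the 10 genes.

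Within a mouse, Lox took a larger part of the lysyl oxidase transcripts on the HFD. Per kilobase of exon, Lox made up 7.42%, 7.40% and 5.29% of the summed level of the 5 lysyl oxidases in HFD mice 1, 2 and 3. In control mice 1, 2 and 3 the share was 3.13%, 3.86% and 5.05%. The ranges did not overlap, although HFD mouse 3 and control mouse 3 came close. Loxl1 held the bulk in every mouse, from 75.4% to 78.7% on the HFD and from 77.7% to 81.7% on the control diet. Of the 4 log2 ratios of Lox to another lysyl oxidase, only that to Loxl1 kept the diets apart, with a mean of -2.99 ± 0.26 in the HFD mice against -3.78 ± 0.38 in the controls (SD, n = 3 each). Its exact permutation p was 0.1 and the other 3 had 0.2, all 0.2 after adjustment over the 4 ratios. With 3 mice against 3 these tests cannot go below 0.1, so they cannot tell whether Lox and its relatives responded differently.

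The alpha subunits of prolyl 4-hydroxylase carry the catalytic site, and each pairs with protein disulfide isomerase, the product of P4hb. P4ha1, the main subunit in most tissues, had 1818, 1894 and 3855 normalized counts in HFD mice 1, 2 and 3 and 1685, 1488 and 1685 in control mice 1, 2 and 3. The gene (ENSMUSG00000019916) lies on the plus strand of chromosome 10 from 59323296 to 59373304. Every HFD mouse was above every control mouse, but HFD mice 1 and 2 by little and HFD mouse 3 by a wide margin. HFD mice averaged 2522 ± 1155 and control mice 1619 ± 114 (SD, n = 3 each), and the log2 difference was 0.55 with a 95% interval from 0.01 to 1.09 (limma adjusted p = 0.394). Without HFD mouse 3 it was 0.20, with a 95% interval from -0.06 to 0.45.

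P4ha2, the subunit of the type II enzyme, had 798, 692 and 1082 normalized counts in HFD mice 1, 2 and 3 and 661, 563 and 449 in control mice 1, 2 and 3. Here too the diets did not overlap, with the narrowest gap between HFD mouse 2 and control mouse 1. HFD mice averaged 858 ± 202 and control mice 557 ± 106 (SD, n = 3 each). P4ha2 had a log2 fold change of 0.61 with a 95% interval from 0.19 to 1.03 (limma adjusted p = 0.196). The estimate was 0.43 without HFD mouse 3. P4ha2 (ENSMUSG00000018906) is on the plus strand of chromosome 11 from 54100095 to 54131665. P4ha3 (ENSMUSG00000051048, chromosome 7, 100285520 to 100319699, plus strand) lay near the limit of the reads, with 7 to 14 reads per HFD mouse and 5 to 16 per control mouse. Its normalized counts of 7.14 to 15.9 and 5.47 to 11 overlapped. It fell under the filter of the main test, and DESeq2, which tested it, did not call it. With so few reads a small change of this subunit could be missed.

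Plod1 encodes the lysyl hydroxylase that acts on the helical part of collagen, and Plod2 the one that acts on its telopeptides. Plod1 (ENSMUSG00000019055) is found on chromosome 4 from 147909753 to 147936767, minus strand, and Plod2 (ENSMUSG00000032374) on chromosome 9 from 92542223 to 92608428, plus strand, where Gm38391 overlaps 647 of its bases from the opposite strand. Plod1 had 1922, 2016 and 3213 normalized counts in HFD mice 1, 2 and 3 and 2013, 1893 and 1635 in control mice 1, 2 and 3. HFD mice 1 and 2 were level with the controls, and HFD mouse 3 stood apart. The log2 fold change of Plod1 was 0.33 (95% interval from -0.08 to 0.74, limma adjusted p = 0.52), and 0.10 without HFD mouse 3. Plod2 had 659, 753 and 576 normalized counts in HFD mice 1, 2 and 3 and 504, 639 and 618 in control mice 1, 2 and 3. Among the HFD mice, number 3 was here the lowest and lay within the control range. The log2 fold change of Plod2 was 0.17 with a 95% interval from -0.15 to 0.50 (limma adjusted p = 0.693).

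**Figure D2:**
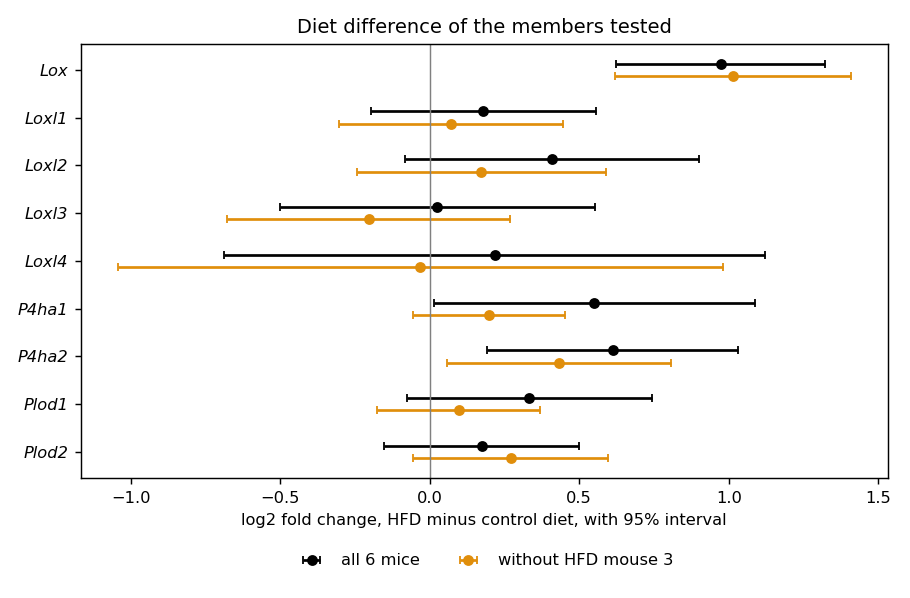
Log2 fold change, HFD minus control diet, with its 95% interval from limma (horizontal axis) for the 9 members tested, with all 6 mice in black and without HFD mouse 3 in orange. Lox lies at 0.97 and 1.01, and leaving that mouse out moves P4ha1 from 0.55 to 0.20 and Loxl3 from 0.03 to -0.20.

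One mouse recurred in these values. HFD mouse 3 was the highest of the 6 for 7 of the 9 members tested, against 20.3% of all genes tested, and also for P4ha3. Its level over the mean of HFD mice 1 and 2 was 2.10 for P4ha3, 2.08 for P4ha1, 1.69 for Loxl4, 1.63 for Plod1, 1.61 for both Loxl2 and Loxl3, 1.45 for P4ha2 and 1.25 for Loxl1. The exceptions were Lox, at 0.92, and Plod2, at 0.82. At the other end, control mouse 3 was the lowest of the 6 for 5 of the 9 members tested, against 15.4% of all genes tested, and also for P4ha3. Without HFD mouse 3, 7 of 9 estimates were above 0, with a median of 0.17, and Lox was the 1 member called, against 2.24% of all genes. The diets then did not overlap for 4 members, Lox, P4ha1, P4ha2 and Plod2, all higher on the HFD, against 15.7% of all genes. This mouse was singled out after its values were seen.

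HFD mouse 3 also differed in other lists. The atrial myocyte markers summed to 518575 normalized counts in HFD mouse 3, to 285064 and 285797 in HFD mice 1 and 2, and to between 440112 and 480118 in the controls, so the other HFD mice were the low ones there. Serpinh1, the collagen chaperone HSP47, had 12020 normalized counts in HFD mouse 3 against 4153 and 4265 in HFD mice 1 and 2 and 4387 to 5559 in the controls. Serpinh1 was chosen after its values were seen, and its fold over the other HFD mice, 2.86, was above that of any member. Its log2 fold change between the diets was 0.24 (limma adjusted p = 0.828). Of the 7 fibroblast markers, 0 were highest in HFD mouse 3, against 20.3% of all genes tested. Their sum there was the lowest of the 6, at 91741 normalized counts, close to the 93486 of HFD mouse 2. The part of these differences in the members' values was not tested.

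Promoter sequence is shown for P4ha1, P4ha2 and Plod1, 3 of the members highest in HFD mouse 3. RefSeq promoters on GRCm38.p6 matched 5 of the 10 members, these 3, Loxl4 and P4ha3, and none was matched for Lox. All 5 were highest in HFD mouse 3, so that trait did not single out the 3 shown. Given are the 250 bases before the annotated start, from 5′ to 3′ on the gene's own strand, at chr10:59323046-59323295 (plus) for P4ha1, chr11:54100674-54100923 (plus) for P4ha2 and chr4:147936777-147937026 (minus) for Plod1. None of these windows overlaps a GENCODE exon, and that of P4ha2 lies in an intron of 1 longer transcript. Capitals mark the core letters of the hypoxia response element, ACGTG or GCGTG on either strand, the words bound by hypoxia-inducible factors, which overlap other factors' motifs such as the E-box.
P4ha1: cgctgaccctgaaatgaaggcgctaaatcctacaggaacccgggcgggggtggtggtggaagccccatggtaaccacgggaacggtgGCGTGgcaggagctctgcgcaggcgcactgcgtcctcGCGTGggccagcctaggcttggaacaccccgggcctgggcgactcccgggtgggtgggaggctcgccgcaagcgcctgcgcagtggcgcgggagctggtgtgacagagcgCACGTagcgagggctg
P4ha2: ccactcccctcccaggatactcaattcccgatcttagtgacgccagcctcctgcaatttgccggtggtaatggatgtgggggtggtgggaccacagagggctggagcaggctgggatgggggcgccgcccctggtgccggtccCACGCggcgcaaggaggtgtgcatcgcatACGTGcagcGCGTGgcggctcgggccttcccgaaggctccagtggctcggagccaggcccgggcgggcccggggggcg
Plod1: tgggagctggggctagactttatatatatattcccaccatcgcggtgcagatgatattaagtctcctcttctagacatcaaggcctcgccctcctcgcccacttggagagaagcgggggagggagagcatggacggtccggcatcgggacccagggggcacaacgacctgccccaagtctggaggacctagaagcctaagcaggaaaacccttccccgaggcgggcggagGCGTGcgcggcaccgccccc
P4ha1 and P4ha2 hold 3 such words each, and Plod1 holds 1. The words of P4ha1 begin 163, 126 and 16 bases before the start, those of P4ha2 107, 78 and 69, and that of Plod1 20. Loxl4 has 1 and P4ha3 none in this window. At least 1 word stood in 38.6% of 32851 promoters of the same length, and in 63.8% of the 9178 with a GC content of at least 60%, as all 5 members have. A match describes letters only.

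Of the 13 hypoxia-response genes, 10 had estimates above 0 and a median of 0.25 on the log2 scale. An unadjusted p under 0.05 was found for 6, 5 higher and 1 lower, against 12.2% of all genes, and 4 had every HFD mouse above every control mouse, against 8.86%. Limma called 1 of the 13. That gene, Adm, which encodes the vasodilator peptide adrenomedullin, fell, with 449, 603 and 678 normalized counts in HFD mice 1, 2 and 3 and 1092, 939 and 1072 in the controls. Its log2 fold change was -0.86 (limma adjusted p = 0.0442), and it was called by DESeq2 but not by edgeR. Egln3, a prolyl hydroxylase that acts on hypoxia-inducible factors and not on collagen, had a log2 fold change of 0.64 (limma adjusted p = 0.125; also called by DESeq2), and Pfkfb3, a glycolytic regulator, 0.56 (limma adjusted p = 0.201). HFD mouse 3 was highest for 3 of the 13.

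**Figure D3:**
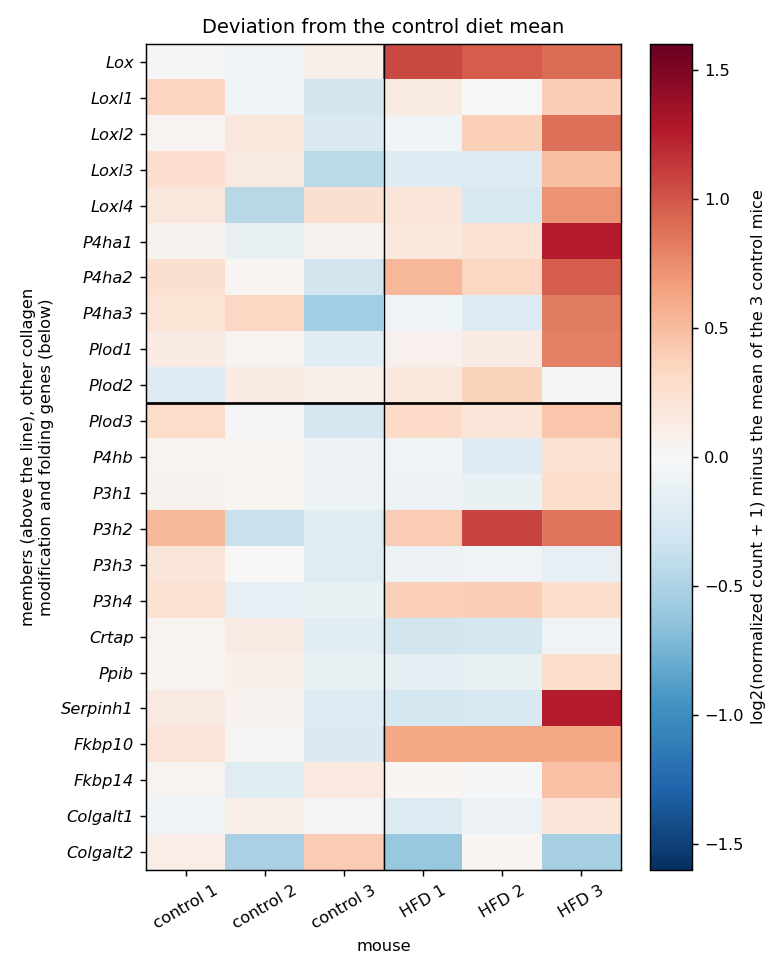
Deviation of log2(normalized count + 1) from the mean of the 3 control mice (color scale, red higher, blue lower) for the 10 members and 13 other collagen modification and folding genes (rows) in each mouse (columns). Lox and Fkbp10 are red to a similar depth in all 3 HFD mice, and other rows, such as P4ha2 and P3h4, are red in all 3 as well. P4ha1 and Serpinh1 are deepest in HFD mouse 3, where their counts were 3855 and 12020.

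Compared per kilobase of exon, transcripts of the 10 genes were ordered by their mean in the control mice. Loxl1 led with 533 ± 123 normalized counts per kilobase, P4ha1 394 ± 27.7 and Plod1 273 ± 28.5 (SD, n = 3 each). Loxl1 was above P4ha1 in each of the 3 control mice, though only by 426 against 410 in control mouse 3. Plod2, with 109 ± 13.5, and P4ha2, with 89.4 ± 17, overlapped, as did Loxl3, with 55.2 ± 13.2, and Loxl2, with 50.2 ± 7 (SD, n = 3 each). Lox followed with 26.1 ± 1.21, and Loxl4, with 5.96 ± 1.51, and P4ha3, with 2.82 ± 0.94, came last (SD, n = 3 each). The other neighbors in this order did not overlap among the control mice. On the HFD the mean level of Lox per kilobase was 51.4 ± 2.98 (SD, n = 3), within the pooled range of Loxl2 and Loxl3 over the HFD mice, 46.9 to 91.8. Within a mouse, Lox was above both in HFD mouse 1 and between them in HFD mouse 2. In HFD mouse 3 it was below both, at 48.5 against 91.8 for Loxl2 and 75.8 for Loxl3. With lengths of the longest transcript in place of all exons, Plod1 moved ahead of P4ha1 and P4ha2 ahead of Plod2.

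**Figure D4:**
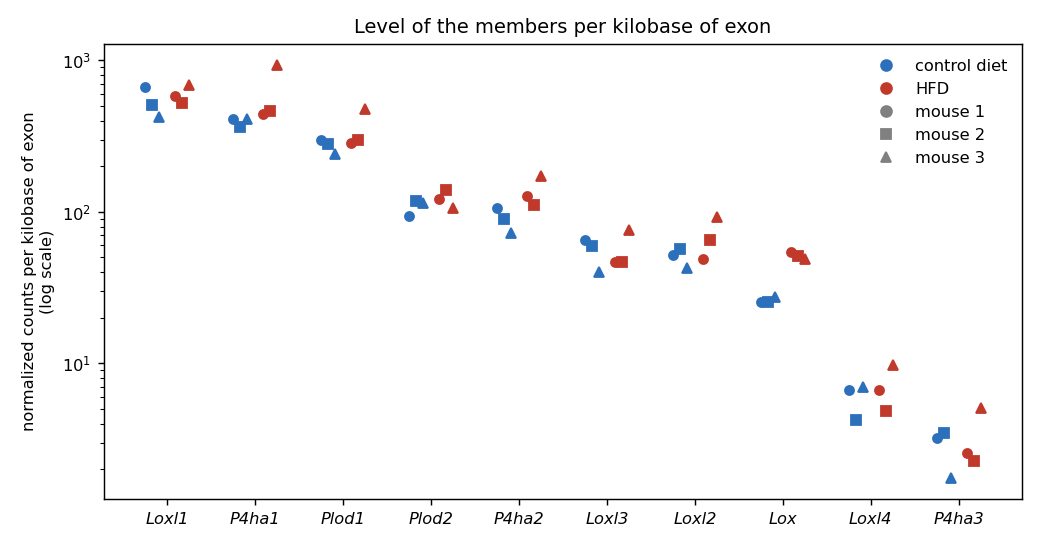
Normalized counts per kilobase of exon (vertical axis, log scale) of the 10 genes in each mouse, in order of their control diet mean, with control diet in blue and HFD in red. Loxl1, P4ha1 and Plod1 lie highest, from 242 to 937, and Loxl4 and P4ha3 lowest, from 1.74 to 9.71.

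The other genes of collagen modification and folding were called for 0 of 13 in limma, with 3 at an unadjusted p under 0.05, 0 in edgeR and 1, Fkbp10, in DESeq2. Their median log2 fold change was 0.03, with 7 of 13 estimates above 0. Fkbp10, a peptidyl-prolyl isomerase tied to telopeptide lysyl hydroxylation, had 1058, 1059 and 1052 normalized counts in HFD mice 1, 2 and 3 and 793, 698 and 586 in control mice 1, 2 and 3. The HFD mice were nearly equal, and all lay above the controls, with a log2 fold change of 0.62 (limma adjusted p = 0.0662). P3h4, a partner of Plod1 in helical lysine hydroxylation, did not overlap between the diets either, at a log2 fold change of 0.35 (limma adjusted p = 0.305). P3h2, a prolyl 3-hydroxylase, had a difference of 0.78 (limma adjusted p = 0.315) and overlapped. P4hb, the shared partner of the P4ha subunits, had a log2 fold change of -0.01, and Plod3, the remaining lysyl hydroxylase, 0.31 (limma adjusted p = 0.441).

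The substrates were called for 0 of 8 fibrillar collagens and elastin in limma, edgeR and DESeq2, with 1 at an unadjusted p under 0.05, while Col2a1 and Col11a1 were too low to be tested. The median log2 fold change was 0.11. Col5a2, a chain of collagen V, had 1139, 1346 and 1333 normalized counts in HFD mice 1, 2 and 3 and 1036, 900.0 and 955 in control mice 1, 2 and 3. The diets did not overlap, at a log2 fold change of 0.40 (limma adjusted p = 0.175). Col11a2 had a log2 fold change of 0.48 and Col1a1, the main chain of collagen I, 0.20, both with overlapping diets. HFD mouse 3 was the highest for 6 of the 8.

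Of 11 genes of procollagen export and processing, 0 were called by limma, edgeR or DESeq2 and 0 had an unadjusted p under 0.05, with a median log2 fold change of 0.17. The smallest p belonged to Pcolce2, an enhancer of propeptide cleavage, at a log2 fold change of -0.28, Sec24d, a coat protein of export vesicles, at 0.27, and Mia3, a receptor that loads procollagen, at 0.17. Of 8 matrix partners of lysyl oxidase, 0 were called by any of the 3 tools and 1 had an unadjusted p under 0.05, with a median of 0.01. Fbn1, fibrillin 1, had a log2 fold change of 0.29, Ltbp4 -0.29 and Postn, periostin, 0.19. Of the 6 genes tested for copper, iron and ascorbate supply, the cofactors of these enzymes, 0 were called by any tool and 0 had an unadjusted p under 0.05. The smallest p there were those of Tfrc, the transferrin receptor, Slc23a2, an ascorbate transporter, and Slc31a1, a copper importer, with log2 fold changes of -0.49, 0.13 and 0.05.

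Of 7 TGF-beta response genes reported, 0 were called by limma, edgeR or DESeq2 and 2 had an unadjusted p under 0.05, with a median of 0.34 on the log2 scale. Tgfbi, a secreted matrix protein, had 744, 779 and 852 normalized counts in HFD mice 1, 2 and 3 and 1083, 945 and 1020 in control mice 1, 2 and 3. All HFD mice were below all controls, at a log2 fold change of -0.36 (limma adjusted p = 0.224). Skil, a repressor of SMAD signaling, had 0.50 (limma adjusted p = 0.349) and Tgfb3, a TGF-beta ligand, 0.34 (limma adjusted p = 0.517), both with overlapping diets. HFD mouse 3 was the highest for 5 of the 7. Adm, the hypoxia-response gene called above, kept its call in 1 of the 6 fits with a mouse left out, that without HFD mouse 3 (limma adjusted p = 0.00877).

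Cell type markers were summed in each mouse to set beside these values. Fibroblast markers summed to between 91741 and 105342 normalized counts on the HFD and between 105651 and 129938 on the control diet. Gsn alone made up 70.6% to 74.9% of that sum, and without it the diets overlapped, at 23827 to 29773 and 27921 to 32671, as did 5 of the 7 markers singly. Of the 7, 0 were called by limma, edgeR or DESeq2, 1 had an unadjusted p under 0.05 (Lum, log2 fold change -0.33), and the median was -0.22. Endothelial markers summed to between 17927 and 20253 on the HFD and between 15191 and 15696 on the control diet, with 0 of 6 called by limma or edgeR and 2 at an unadjusted p under 0.05. Pecam1 was nearest (log2 fold change 0.57, limma adjusted p = 0.0504) and was called by DESeq2. The median log2 fold change of the 6 was 0.17, and 3 overlapped between the diets, with Cdh5 at 0.04. Macrophage markers summed to between 9168 and 10472 on the HFD and between 6724 and 8398 on the control diet, and Cd163 was called (log2 fold change 0.95, limma adjusted p = 0.031). Lyz2 made up 46.3% to 54.5% of the macrophage sum and itself overlapped. Without Lyz2 the diets still did not overlap, at 4281 to 4983 on the HFD and 3536 to 3983 on the control diet. Of the 6 markers, 4 overlapped singly, Lyz2 among them, with Csf1r at -0.01 and a median of 0.35. An unadjusted p under 0.05 was found for 3, all higher on the HFD. The part of these markers in the value of Lox was not tested.

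Brown adipocyte markers summed to between 616 and 1283 on the HFD and between 187 and 330.3 on the control diet, with Cidea (log2 fold change 1.21, limma adjusted p = 0.031) and Ucp1 (log2 fold change 4.43, limma adjusted p = 0.0446) called of 3 tested and Elovl3 too low. Of these markers edgeR called Cidea but not Ucp1, and DESeq2 called Cidea, Ucp1 and Dio2. With 1 mouse left out in turn, Cd163 kept its call in 1 of 6 fits, without HFD mouse 3, Ucp1 in 2, without HFD mouse 3 or control mouse 1, and Cidea in 2, without HFD mouse 2 or 3. White adipocyte markers overlapped, at 1257 to 3718 and 568 to 2747, with 0 of 6 called by limma, edgeR or DESeq2 and 0 at an unadjusted p under 0.05. Smooth muscle markers overlapped at 7944 to 9281 and 6859 to 9309, with 0 of 6 called by limma or edgeR and Cnn1 called by DESeq2. Of the 3 at an unadjusted p under 0.05, Cnn1 (log2 fold change 1.08) and Mylk (0.31) were higher on the HFD and Smtn (-0.43) lower. Mesothelial markers overlapped at 1429 to 2255 and 1428 to 2191, with 0 of 6 called by any tool. Krt19 alone was at an unadjusted p under 0.05 (log2 fold change 0.59). Ventricular myocyte markers summed to 17399 in control mouse 2 and to between 6882 and 9866 in the other mice, with 0 of 4 called by any tool. Myh7 alone was at an unadjusted p under 0.05 (log2 fold change -0.41). Atrial myocyte markers had 0 of 5 called by any tool and 2 at an unadjusted p under 0.05. These were Myl7 and Sln, both lower on the HFD (log2 fold changes -0.66 and -0.32). Of the chondrocyte markers, Matn1 was at 0 in 5 mice, Acan, Col2a1 and Matn3 had means under 10 and Comp was the 1 tested. Comp was not called by any tool but was at an unadjusted p under 0.05 (log2 fold change -0.76). It had 1540 normalized counts in control mouse 1 and 460.1 to 756 in the others, and the diets overlapped. The part of these cell types in the members' values was not tested.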

How the data were processed

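Libraries were made with a directional kit and read as single-end 50 bp reads. The authors aligned them with STAR to GRCm38 (Ensembl 79), kept uniquely mapped reads, assigned them to genes with Salmon and compared diets with DESeq2. Tool versions are not given in the sources used here. The signal that the authors deposited is the read count of each gene divided by 1 size factor per sample, called normalized counts. Their own fold changes, p-values and ranking scores were not used, and 1 unlabelled row holding 0 reads was left out. Unique mapping removes reads shared with near-identical copies, and the use of strand in counting is not stated.

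Dividing each sample by its smallest positive value gave whole reads for 100% of values (within 0.01). The floor of 3 reads covers counting error only, while the 95% intervals of log2 fold changes come from limma and the spread between samples. The main test was limma 3.58.1 in R 4.3.3 (lmFit and trended eBayes) on log2(normalized count + 1), with genes averaging under 10 left out, all 6 samples, no covariates, with Benjamini-Hochberg adjustment over all 15275 genes and a threshold of 0.05. Alternatives were edgeR 4.0.16 (quasi-likelihood, TMM or RLE) and DESeq2 1.42.0 on the recovered reads, which called 87, 91 and 445 genes, a pseudocount of 0.1, no low filter, quantile normalization, totals without mitochondrial genes, no variance trend, the replicate number as a block, an absolute log2 fold change over 1, and each mouse left out. The test was run on simulated data first. Exon lengths came from GENCODE M21 and names from its table, which matched 42462 of 43432 identifiers (97.8%). Named were the 10 members, and of each list every gene called and up to 3 with the smallest p. The members, lists and tests were chosen with earlier results of these data known. The count of non-overlapping members without HFD mouse 3 and the ratios of Lox to its relatives were added after seeing the data. One further gene of the TGF-beta list is not reported here.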

Additional observations from a re-analysis of the deposited data

How the results depend on the processing

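Under 15 alternatives, the log2 fold changes of Loxl1, Loxl2, P4ha1, P4ha2, Plod1 and Plod2 stayed above 0 and uncalled. That of Lox stayed between 0.93 and 1.01 and kept its call in 9, with adjusted p from 0.000977 to 0.116. Lox lost its call without a variance trend (limma adjusted p = 0.11), where 0 genes and 0 members were called, with 1717 genes and 2 members at an unadjusted p under 0.05. It also lost it in 5 of the 6 fits without 1 mouse, namely without HFD mouse 1 or 2 or any control mouse. These fits called between 14 and 342 genes (114 with all mice) and between 0 and 1 members. By mouse left out, 52, 24 and 342 genes were called without HFD mouse 1, 2 or 3, and 50, 14 and 19 without control mouse 1, 2 or 3. With 1 mouse left out, Loxl3 ranged from -0.20 to 0.16 and Loxl4 from -0.032 to 0.45, below 0 without HFD mouse 3 for both, without control mouse 3 for Loxl3 (-0.18) and without control mouse 2 for Loxl4 (-0.0037). DESeq2 called 445 genes and the added fold criterion 69, with 0 members, since the log2 fold change of Lox is under 1.

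No pairing of the mice by the replicate numbers of the titles was seen. Same-numbered deviations correlated at 0.12, -0.03 and -0.0039, and differently numbered ones at -0.15 to 0.16. With 3 mice a diet such correlations cannot exclude a pairing. With the replicate block, 157 genes and 1 member were called (Lox, limma adjusted p = 0.0423), so no member's call changed. With 3 mice a diet, the 95% intervals of the 8 uncalled members reach upper bounds from 0.50 (Plod2) to 1.12 (Loxl4), and depth limits P4ha3 and Loxl4.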
